A study of Mus musculus with 64 samples.

Results

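The activation response of Ahr-deficient macrophages was set against that of wild-type macrophages at 20 h in 16 of the 64 RNA-seq libraries of the study: all libraries of the later time point that had received no AhR ligand. Bone marrow-derived macrophages (BMMs) had been grown from the marrow of mice aged 8 to 12 weeks, with 4 mice per genotype. The mice were either wild-type C57BL/6JRj (here Ahr+/+) or AhR-knockout on a C57BL/6 background, backcrossed in-house (here Ahr-/-). The wild-type mice were female, and the study methods state no sex for the knockout mice. Differentiation used medium conditioned by L929 fibroblasts as the source of M-CSF. All 4 groups were kept for 6 h with the vehicle, 0.01% DMSO, and the activated cultures then received 10000000 heat-killed Salmonella enterica Serovar Enteritidis bacteria per ml (hk S.E.) for 20 h, while the resting cultures received none. Each group, resting Ahr+/+, activated Ahr+/+, resting Ahr-/- and activated Ahr-/-, had 4 libraries. The quantity reported is the difference of 2 differences, the log2 response to hk S.E. in Ahr-/- BMMs minus that in Ahr+/+ BMMs. A negative value belongs to a gene that was induced less, or repressed more, without AhR, and a positive value to a gene that was induced more, or repressed less. Genes were called at an adjusted p below 0.01 in edgeR's quasi-likelihood test. Gene levels are given as CPM, read counts scaled to a common library total after TMM correction. They are not divided by gene length and are therefore compared between libraries, not between genes.

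The aryl hydrocarbon receptor (AhR) is a transcription factor of the cytosol that binds planar aromatic molecules, moves to the nucleus, pairs with ARNT and binds DNA at a short core sequence, the AHRE or XRE. Its classical targets are enzymes of foreign-compound metabolism and its own repressor, AhRR. Macrophages switch on Ahr when they sense bacteria through pattern recognition receptors such as TLR4, and in these cells AhR is known to take part in the control of cytokine and interferon genes together with NF-κB and STAT proteins. In bulk RNA, fewer cells that carry a transcript and less of that transcript per cell cannot be told apart.

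Total counts assigned to genes lay between 12152496 and 50644601 per library, except 233047331 for resting Ahr+/+ replicate 4. They made up 75.5% to 79.8% of a larger total that also holds the entries that name no gene. The summed level of the macrophage markers was 17300 to 32230 CPM in every library, whereas markers of T and NK cells, mast cells and erythroid cells summed to at most 1.34 CPM. Markers of neutrophils summed to 12.9 to 67.2 CPM, of B cells to 0.53 to 6.3 CPM and of dendritic cells to 0.075 to 1.85 CPM. Stromal markers summed to 0.691 to 1.35 CPM in resting and 4.06 to 6.01 CPM in activated Ahr+/+ BMMs, and to 1.86 to 8.77 and 7.84 to 10.1 CPM in Ahr-/- BMMs. The part of these traces in the results was not tested. Ahr-/- replicates 1 and 2 stood apart from Ahr-/- replicates 3 and 4 in both states on the second principal component, which carried 4.94% of the variance against 82.1% for the first, the axis of activation. The identifiers that the labels give the libraries fall into series: all 8 Ahr-/- libraries belong to 1 series and all 4 activated Ahr+/+ libraries to another, so that genotype and series cannot be told apart in activated cells. Of the resting Ahr+/+ libraries, replicates 3 and 4 belong to the series of the activated ones. Nothing in the labels says that a replicate number marks the same mouse, and the p-values therefore measure the spread between libraries.

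Ahr itself (chromosome 12, 35497974 to 35535038, minus strand, GRCm38) was expressed in all 16 libraries. It stood at 2.62, 4.52, 4.72 and 3.34 CPM in resting and 14.9, 12.7, 12.7 and 11.9 CPM in activated Ahr+/+ BMMs. In Ahr-/- BMMs its values were 6.303, 5.44, 8.80 and 8.62 CPM at rest and 24.1, 21.3, 25.9 and 28.1 CPM after activation, above every Ahr+/+ library of the same state. Its difference in response to hk S.E. did not pass the test, at -0.04 (SE 0.27, edgeR adjusted p = 0.974). The count covers the whole gene and does not check which part is deleted. Ahrr, the direct target gene of AhR that encodes its repressor, was lower in each of the 8 Ahr-/- libraries than in any Ahr+/+ library of the same state.

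At 20 h, 641 of 14537 genes tested responded to hk S.E. differently in the 2 genotypes, 4.41% of all. Of these, 338 had a lower response in Ahr-/- BMMs (2.33% of the genes tested) and 303 a higher one (2.08%), while the median difference over all genes was 0.01 on the log2 scale. For comparison, 8520 genes (58.6%) responded in Ahr+/+ BMMs and 7898 (54.3%) in Ahr-/- BMMs. The difference in response exceeded 1 in size on the log2 scale for 202 of the 641 genes, 31.5%. Most were set apart by the activated cells: 539 of the 641 (84.1%) differed between activated Ahr-/- and Ahr+/+ BMMs, against 12.5% of all genes, whereas 40 (6.24%) already differed at rest, against 0.702% of all genes. A group with no read in any of its 4 libraries occurred in 4 of the 641 genes, whose size of difference is undefined. These contrasts share their libraries with the difference in response.

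The 641 genes fall into 4 classes by the genotype with the larger response and by the direction of that response. The first class, 217 genes (1.49% of those tested), was induced more in Ahr+/+ BMMs, with a median log2 response of 1.53 there and 0.72 in Ahr-/- BMMs, and for 66 of them only the Ahr+/+ response passed the test. A further 194 genes (1.33%) were repressed more in Ahr+/+ BMMs, with medians of -1.29 and -0.40, and 82 of these responded past the threshold only in Ahr+/+ cells. In the opposite direction, 109 genes (0.75%) were induced more in Ahr-/- BMMs, with medians of 0.25 in Ahr+/+ and 0.99 in Ahr-/- cells, 54 of them past the threshold only in Ahr-/- cells. The last class, 121 genes (0.832%), was repressed more in Ahr-/- BMMs, with medians of -0.29 and -1.50, and 58 of these passed only in Ahr-/- cells. Passing in only 1 genotype is a description, since the test of the difference is the interaction itself. The fitted responses had opposite signs for 155 genes, and for 23 of these both responses passed the test.

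**Figure D1:**
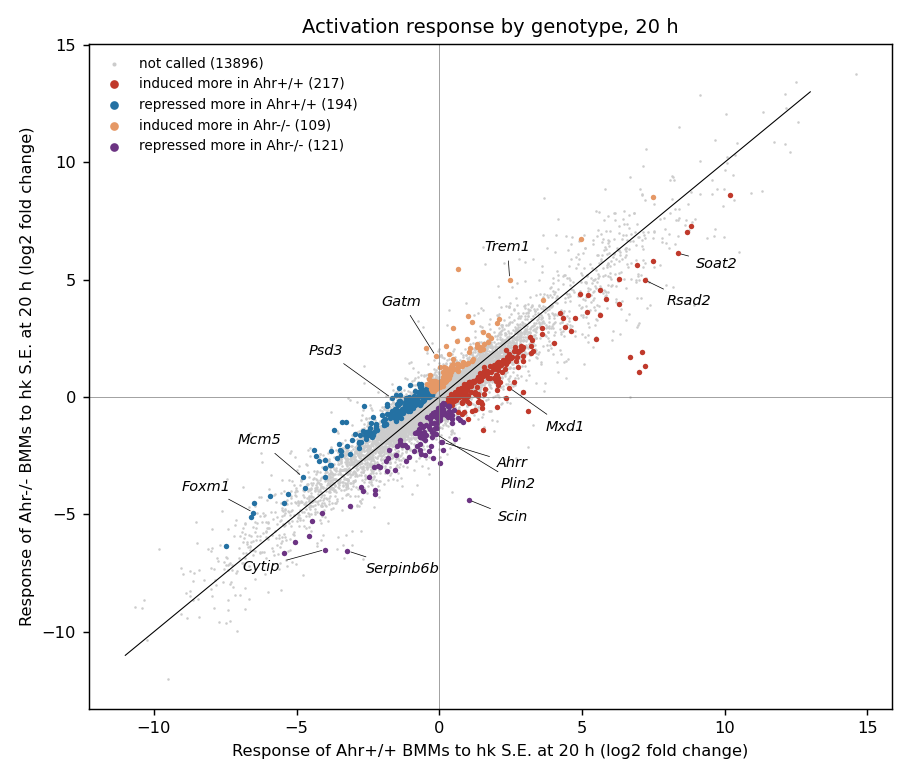
Log2 response to hk S.E. at 20 h in Ahr+/+ BMMs (x axis) against Ahr-/- BMMs (y axis) for all 14537 genes tested, 4 libraries per group, with the 641 genes whose responses differed coloured by class. Genes on the diagonal responded alike, and the coloured genes lie to either side of it. The place of Scin rests on 1 read in the activated Ahr-/- libraries.

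The number of called genes depended on the libraries. Without Ahr-/- replicates 1 and 2, 137 genes were called (77 lower and 60 higher), of which 136 are among the 641. Without Ahr-/- replicates 3 and 4, 516 were called (288 and 228), 437 of them shared. With only the resting Ahr+/+ libraries of the same series as the activated ones, 422 were called (191 and 231), 398 of them shared. All 641 genes kept the sign of their difference in each of these 3 fits, and 635 of them had an unadjusted p under 0.05 without replicates 1 and 2. The genes had been chosen for a small p in the full fit, and these fits reuse its libraries. The kept sign and the unadjusted p are therefore no independent support. Leaving out activated Ahr-/- replicate 2 alone gave 425 genes.

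The list of AhR pathway genes, which holds the receptor, its partners and its classical targets, had 13 members tested, of which 3 were called, 23.1% against 4.41% of all genes, and its median difference in response was -0.04. Ahrr had 5.34, 5.91, 4.37 and 5.17 CPM in resting and 5.84, 6.16, 5.94 and 4.58 CPM in activated Ahr+/+ BMMs. Without AhR it fell from 2.47, 2.23, 3.09 and 3.35 CPM at rest to 0.728, 0.787, 0.626 and 0.8096 CPM after activation. The groups did not overlap between genotypes in either state. Its level did not pass the test of a response in Ahr+/+ cells, at 0.11 (SE 0.18, edgeR adjusted p = 0.599), and dropped in Ahr-/- cells, at -1.92 (SE 0.22, edgeR adjusted p = 2.25e-11), a difference in response of -2.03 (SE 0.28, edgeR adjusted p = 1.95e-06). Scin, which encodes the actin-severing protein scinderin, was counted with 30, 24, 12 and 268 reads in resting and 39, 31, 30 and 121 reads in activated Ahr+/+ libraries. In the Ahr-/- libraries there were 8, 9, 5 and 9 reads at rest and 1, 0, 0 and 0 reads after activation. The ratio of the depth-scaled summed counts, activated over resting, was 1.99 in Ahr+/+ BMMs (95% exact interval 1.68 to 2.37) and 0.0333 in Ahr-/- BMMs (0.000818 to 0.2), where the intervals cover counting error only. The adjusted p of its difference in response was 1.14e-05 in edgeR. The third called member, Hsp90ab1, which encodes the HSP90 chaperone that holds AhR in the cytosol, rose from 974, 834, 715 and 716 to 1879, 1778, 1257 and 1373 CPM in Ahr-/- BMMs, against 849, 804, 942 and 990.5 and 953, 897, 1216 and 1167 CPM in Ahr+/+ BMMs, a difference of 0.72 (SE 0.19, edgeR adjusted p = 0.00988).

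The promoters of Ahrr and Scin are shown because both genes are AhR targets whose transcripts were low or at 0 in activated Ahr-/- cells. Each is the RefSeq window from 250 bases before to 50 bases after the start of the gene (GRCm38.p6, minus strand, 5′ to 3′), and capitals mark the AHRE core GCGTG, searched on both strands. The Ahrr window (chr13:74292282-74292581) holds 3 matches and the Scin window (chr12:40134179-40134478) 1 match.
Ahrr: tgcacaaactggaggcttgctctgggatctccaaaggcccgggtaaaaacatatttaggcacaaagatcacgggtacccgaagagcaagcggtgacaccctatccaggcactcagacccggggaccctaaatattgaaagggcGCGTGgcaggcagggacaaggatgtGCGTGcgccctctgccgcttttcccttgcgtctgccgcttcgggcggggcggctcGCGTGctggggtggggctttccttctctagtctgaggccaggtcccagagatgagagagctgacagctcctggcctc
Scin: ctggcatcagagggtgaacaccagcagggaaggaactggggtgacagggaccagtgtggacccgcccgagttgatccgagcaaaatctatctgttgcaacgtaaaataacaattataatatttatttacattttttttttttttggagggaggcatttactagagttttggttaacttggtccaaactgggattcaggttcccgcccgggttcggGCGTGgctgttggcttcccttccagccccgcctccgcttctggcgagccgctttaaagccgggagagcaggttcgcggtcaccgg
The core is short and common. It was present in 32.4% of all 32851 promoter windows and in 49.3% of the windows of genes tested, beside 48.4% of the windows of the 517 called genes with a match by symbol. By class the share was 43.7% for genes induced more in Ahr+/+ BMMs, 54.3% for those repressed more in Ahr+/+ BMMs, 57.9% for those induced more in Ahr-/- BMMs and 39.1% for those repressed more in Ahr-/- BMMs.

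Other well-known AhR targets did not pass the test of a different response. Tiparp, which encodes an ADP-ribosyltransferase that limits AhR activity, rose in both genotypes, to 86.3, 88.98, 64.5 and 66.1 CPM in Ahr+/+ and 39.0, 35.4, 77.6 and 70.3 CPM in Ahr-/- BMMs, and the difference of -0.46 (SE 0.38, edgeR adjusted p = 0.547) did not pass the test. In activated Ahr-/- cells Tiparp was lower in replicates 1 and 2 than in any activated Ahr+/+ library, but not in replicates 3 and 4. Nqo1, a quinone reductase, stayed between 1.42 and 3.27 CPM in all 16 libraries with a difference of 0.20 (SE 0.38, edgeR adjusted p = 0.841). Cyp1a1 and Cyp1b1, the classical cytochrome P450 targets, had at most 4 and 15 reads in any of these libraries and were not tested.

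Of the 121 genes that were repressed more without AhR, and of all genes tested, the one with the smallest p was Plin2, which encodes the lipid droplet coat protein perilipin 2 and was named after its values were seen. Plin2 stood at 2031, 1961, 1979 and 2087 CPM in resting and 2048, 2037, 1604 and 1759 CPM in activated Ahr+/+ BMMs, and at 2210.0, 2314, 1745 and 1777 CPM in resting Ahr-/- BMMs. After activation it was 731, 615, 718 and 632 CPM in Ahr-/- BMMs, below every other library. The difference in response was -1.46 (SE 0.14, edgeR adjusted p = 1.37e-10). Fabp4, a fatty acid-binding protein of the same lipid-handling context, went from 59.7, 72.98, 36.2 and 36.4 to 12.4, 8.13, 11.6 and 9.81 CPM in Ahr-/- BMMs. In Ahr+/+ BMMs it was 33.7, 26.4, 36.1 and 35.3 CPM at rest and 30.7, 18.6, 20.1 and 34.2 CPM after activation, so that all 4 activated Ahr-/- libraries were the lowest of the 16. Its difference in response was -1.94 (SE 0.29, edgeR adjusted p = 4.92e-06).

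Among the 8 largest differences of this class were genes that hk S.E. turned down in both genotypes and further in Ahr-/- cells. Cytip, which encodes an adaptor that restrains cell adhesion, dropped from 166, 169, 149 and 149 to 7.64, 10.3, 8.801 and 12.7 CPM in Ahr+/+ BMMs. The drop in Ahr-/- BMMs was from 157, 140.5, 179 and 179.7 to 1.84, 1.61, 1.88 and 1.91 CPM, a difference of -2.50 (SE 0.32, edgeR adjusted p = 7.31e-07). The resting levels overlapped and the activated levels did not. Serpinb6b, an intracellular serine protease inhibitor, dropped from 33.4, 23.9, 19.9 and 26.3 to 2.25, 2.35, 2.11 and 4.17 CPM in Ahr+/+ and from 32.04, 17.4, 30.7 and 30.9 to 0.443, 0.262, 0.184 and 0.276 CPM in Ahr-/- BMMs, a difference of -3.34 (SE 0.43, edgeR adjusted p = 7.31e-07). It has close paralogs in the Serpinb6 cluster, and reads that fit several places were not counted. Hdac9, a class IIa histone deacetylase, was lower in Ahr-/- cells already at rest, with 7.45, 4.58, 10.8 and 9.04 CPM against 16.3, 13.1, 16.1 and 13.5 CPM. After activation it was 1.58, 1.76, 1.29 and 1.34 CPM in Ahr-/- and 9.66, 11.5, 7.83 and 8.56 CPM in Ahr+/+ BMMs, a difference in response of -1.79 (SE 0.28, edgeR adjusted p = 1.15e-05). Ifitm6, an interferon-induced transmembrane protein gene, had 2.88, 5.01, 3.08 and 2.002 CPM in activated Ahr+/+ BMMs and 0.506, 0.637, 1.07 and 0.460 CPM in activated Ahr-/- BMMs, from resting levels of 1.74 to 2.79 CPM in both genotypes, a difference of -2.34 (SE 0.44, edgeR adjusted p = 2.22e-04). Plxna4os1, an RNA antisense to a plexin gene that was counted by strand, dropped to 1.12, 1.08, 0.440 and 0.703 CPM in Ahr+/+ and 0.3799, 0.1499, 0.368 and 0.184 CPM in Ahr-/- BMMs, a difference of -1.87 (SE 0.46, edgeR adjusted p = 0.00453). Tspan33, a tetraspanin, was the case of a gene whose genotypes differed at rest and met after activation: 9.58, 3.402, 3.43 and 4.22 CPM in resting Ahr-/- against 1.395, 1.51, 1.24 and 1.403 CPM in resting Ahr+/+ BMMs, but 0.855, 0.975, 1.18 and 0.736 against 1.03, 0.934, 0.629 and 1.32 CPM after activation.

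Tlr9, the receptor for unmethylated CpG DNA, was the only called gene among 26 pattern recognition genes tested (3.85%). It stood at 26.2, 26.9, 28.1 and 14.8 CPM in activated Ahr+/+ and 7.31, 8.32, 11.1 and 7.58 CPM in activated Ahr-/- BMMs, without overlap, while the resting ranges of 27.8 to 41.4 and 26.2 to 35.4 CPM overlapped. Its responses differed by -1.34 (SE 0.26, edgeR adjusted p = 4.31e-04). Zfp36, which encodes tristetraprolin, a protein that binds and destabilises cytokine mRNAs, was repressed to 134, 155, 159 and 137 CPM in Ahr+/+ and to 70.8, 72.2, 90.6 and 76.2 CPM in Ahr-/- BMMs, a difference of -1.02 (SE 0.23, edgeR adjusted p = 0.0016). Cd300c2, a gene of the CD300 family of activating leukocyte receptors that was named after its values were seen, was 136, 122, 132 and 119.7 CPM in activated Ahr-/- BMMs against 199, 217, 214 and 235 CPM in activated Ahr+/+ BMMs, a difference in response of -0.92 (SE 0.10, edgeR adjusted p = 3.68e-08). The lysosomal glycoprotein gene Cd68 (difference -0.67), the lysosomal protease gene Ctss (-0.54) and the membrane protease gene Adam8 (-0.61) were called in the same direction. Cd68 is also one of the macrophage markers, of which 2 of 7 were called.

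**Figure D2:**
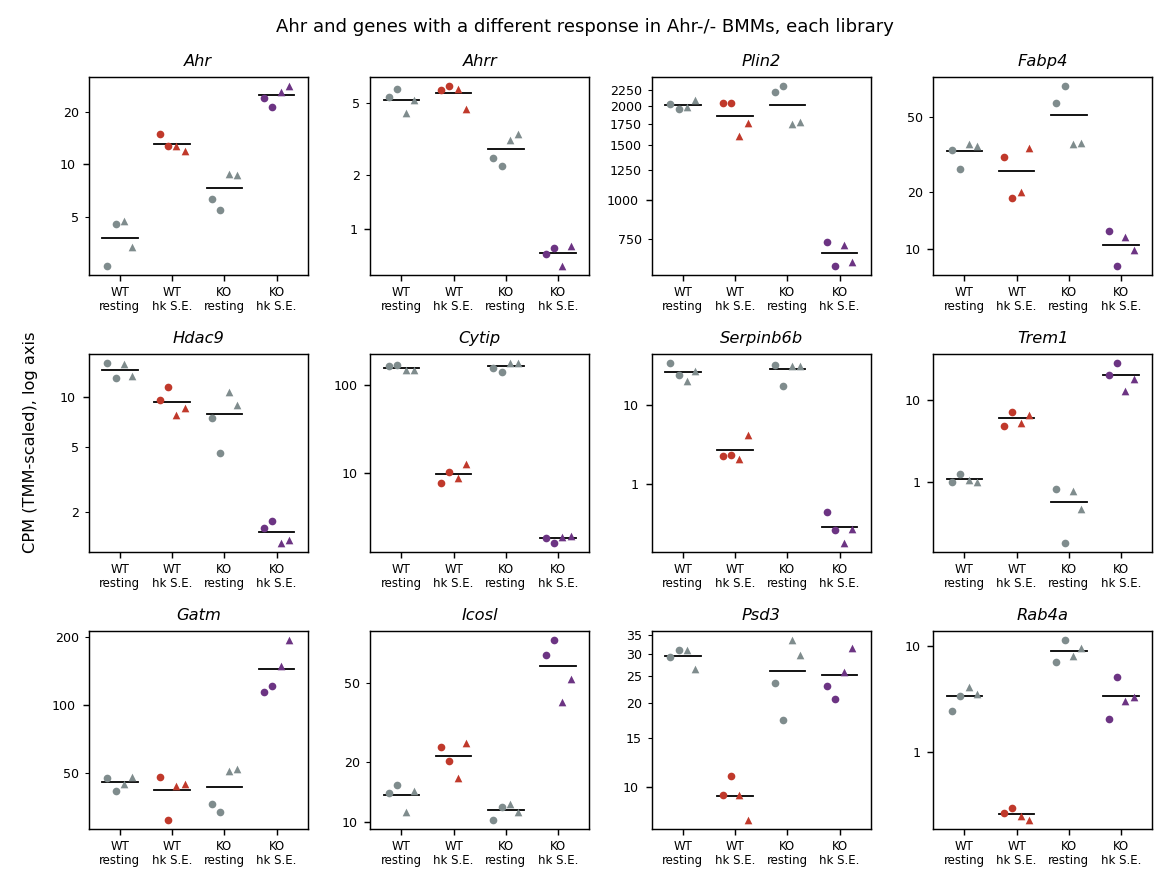
Level of single genes in each of the 16 libraries (CPM, log axis) for resting and hk S.E.-activated Ahr+/+ (WT) and Ahr-/- (KO) BMMs. Circles are replicates 1 and 2, triangles are replicates 3 and 4, and a black line is the mean of 4 libraries. Ahrr and Plin2 are lowest in all 4 activated Ahr-/- libraries.

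The 40 interferon-stimulated genes, which interferon switches on and whose products act against viruses, all had a fitted difference below 0, with a median of -0.72 against 0.01 over all genes. The median log2 response was 4.54 in Ahr+/+ and 3.29 in Ahr-/- BMMs. The test was passed by 7 of the 40, 17.5% against 4.41% of all genes, and 27 had an unadjusted p under 0.05, against 21.5% of all genes. The 7 were Mx1, Rsad2, Cmpk2, Isg15, Isg20, Mx2 and Irf1. Rsad2, which encodes the antiviral enzyme viperin, reached 2411, 2077, 1427 and 1979.6 CPM in Ahr+/+ BMMs from 12.8, 18.3, 8.73 and 13.8 CPM at rest. In Ahr-/- BMMs it reached 235, 132, 861 and 619.7 CPM from 8.47, 9.22, 20.3 and 19.6 CPM. Replicates 1 and 2 were lower than replicates 3 and 4, and all 4 were below every activated Ahr+/+ library. The difference in response was -2.21 (SE 0.58, edgeR adjusted p = 0.0088).

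Mx1, whose product is a dynamin-like GTPase, reached 577, 637, 450.2 and 514 CPM in activated Ahr+/+ and 75.5, 52.9, 211 and 151 CPM in activated Ahr-/- BMMs, a difference of -2.33 (SE 0.51, edgeR adjusted p = 0.00135). Mx2 is its near relative, and reads that both could give rise to are uncertain in either count. It reached 71.02, 77.03, 66.1 and 77.1 and 24.5, 21.5, 40.6 and 33.6 CPM, a difference of -1.55 (SE 0.31, edgeR adjusted p = 5.67e-04). Cmpk2, a mitochondrial nucleotide kinase gene next to Rsad2, had 604, 549.6, 365 and 549 CPM against 73.3, 50.97, 219.9 and 161 CPM and a difference of -2.14 (SE 0.51, edgeR adjusted p = 0.00349). Isg15, which encodes a ubiquitin-like modifier, rose to 1047, 923, 907 and 1154 CPM in Ahr+/+ and 454, 334, 560.4 and 486 CPM in Ahr-/- BMMs, a difference of -1.32 (SE 0.30, edgeR adjusted p = 0.00196). The exonuclease gene Isg20 followed with -1.67 (SE 0.30, edgeR adjusted p = 9.67e-05), and Irf1, which encodes a transcription factor of the interferon system, with -0.66 (SE 0.16, edgeR adjusted p = 0.0049). For each of these 7 genes the activated Ahr-/- libraries lay below all activated Ahr+/+ libraries.

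The split among the Ahr-/- replicates bears on this list. The mean log2 CPM over the 40 genes was 8.26, 8.24, 8.01 and 8.23 in activated Ahr+/+ libraries, and 6.97, 6.72, 7.79 and 7.65 in activated Ahr-/- libraries. At rest it was 3.67, 4.16, 3.30 and 3.79 against 3.29, 3.56, 4.16 and 4.27. Replicates 3 and 4 of the Ahr-/- group were thus the higher ones in both states. No gene of the list was called without Ahr-/- replicates 1 and 2, and 6 were called without replicates 3 and 4. Leaving out single libraries gave 4 to 13 called genes.

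The promoters of Isg15 and Rsad2 are shown because both genes were called and many genes of the list carry a common element. Capitals mark the core of the interferon-stimulated response element, GAAA followed by any 2 bases and a second GAAA, searched on both strands. Isg15 (chr4:156200769-156201068, minus strand) holds 3 overlapping matches, and Rsad2 (chr12:26456403-26456702, minus strand) holds 1, on the opposite strand to the one printed.
Isg15: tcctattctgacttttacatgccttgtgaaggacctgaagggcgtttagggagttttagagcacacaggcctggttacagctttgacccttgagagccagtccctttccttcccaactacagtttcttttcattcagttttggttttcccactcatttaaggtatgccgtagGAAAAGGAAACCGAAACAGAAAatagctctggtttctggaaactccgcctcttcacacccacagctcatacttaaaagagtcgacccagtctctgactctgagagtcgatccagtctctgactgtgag
Rsad2: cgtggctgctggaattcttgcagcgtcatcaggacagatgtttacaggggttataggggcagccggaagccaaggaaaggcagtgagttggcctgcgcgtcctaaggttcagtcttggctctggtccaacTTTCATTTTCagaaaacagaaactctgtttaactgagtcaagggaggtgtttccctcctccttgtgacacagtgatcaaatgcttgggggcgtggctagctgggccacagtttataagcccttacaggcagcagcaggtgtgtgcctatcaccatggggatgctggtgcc
This core was found in 19 of 36 windows of the list, 52.8%, against 3.44% of all windows. Among called genes it was in 7.04% of the windows of genes induced more in Ahr+/+ BMMs, in 6.77% of those repressed more in Ahr-/- BMMs, in 0.481% of those repressed more in Ahr+/+ BMMs and in none of the 107 windows of genes induced more in Ahr-/- BMMs.

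The induction of other genes was also smaller without AhR. Mxd1, which encodes a partner of MAX that opposes MYC, rose from 11.8, 13.6, 12.6 and 13.2 CPM at rest to 72.8, 71.8, 67.9 and 66.8 CPM in activated Ahr+/+ BMMs. Without AhR it was 10.8, 11.3, 11.9 and 12.3 CPM at rest and 13.6, 9.97, 21.5 and 16.3 CPM after activation, so that the response of 0.40 (SE 0.20, edgeR adjusted p = 0.0745) did not pass the test. The difference was -2.04 (SE 0.28, edgeR adjusted p = 1.84e-06). Rhov, an atypical small GTPase gene, went up in Ahr+/+ BMMs, from 8.86, 7.67, 7.77 and 8.52 to 19.6, 14.9, 13.8 and 17.7 CPM. It went down in Ahr-/- BMMs, from 7.42, 6.93, 6.17 and 6.43 to 3.58, 2.32, 4.45 and 3.496 CPM, a difference of -1.96 (SE 0.31, edgeR adjusted p = 1.31e-05). The activated groups of both genes did not overlap.

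Gadd45b, a stress-response gene downstream of NF-κB, rose to 403, 311, 178 and 362 CPM in Ahr+/+ and to 82.4, 70.8, 126 and 102 CPM in Ahr-/- BMMs from 11.4 to 15.3 CPM at rest, a difference of -1.81 (SE 0.29, edgeR adjusted p = 1.55e-05). Soat2, which encodes a cholesterol-esterifying enzyme, was near absent at rest, with 0.174, 0.0943, 0.142 and 0.206 CPM in Ahr+/+ and 0.402, 0.247, 0.484 and 0.533 CPM in Ahr-/- BMMs. It reached 62.8, 69.7, 50.5 and 57.8 CPM in activated Ahr+/+ and 36.6, 29.6, 31.4 and 29.4 CPM in activated Ahr-/- BMMs, and the difference of -2.22 (SE 0.35, edgeR adjusted p = 1.35e-05) drew on both states. Npc2, which encodes the lysosomal cholesterol carrier and was named after its values were seen, rose from 945, 996, 943 and 1077 to 1793, 1758, 1652 and 2015 CPM in Ahr+/+ BMMs. It was 1086, 989, 1145 and 1033 CPM in activated Ahr-/- BMMs and 975, 1075, 933 and 993 CPM at rest, a response that did not pass the test, and the difference was -0.77 (SE 0.10, edgeR adjusted p = 7.31e-07).

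Of the 14 anti-inflammatory genes tested, 3 were called (21.4%), all with a lower response in Ahr-/- BMMs. Dusp1, which encodes a phosphatase that switches off MAP kinases, was 185, 175, 109 and 126 CPM in activated Ahr+/+ BMMs against 53.3, 52.4, 55.98 and 49.8 CPM at rest. In Ahr-/- BMMs it was 46.7, 38.4, 62.4 and 45.7 CPM after activation and 61.9, 53.9, 59.4 and 59.9 CPM at rest, and its response of -0.28 (SE 0.24, edgeR adjusted p = 0.307) did not pass the test. The difference was -1.78 (SE 0.34, edgeR adjusted p = 2.99e-04). Atf3, a stress-induced transcriptional repressor gene, rose to 479, 444, 385 and 448 CPM in Ahr+/+ BMMs and was 255, 178, 268 and 240.4 CPM in activated Ahr-/- BMMs, from 242 to 298 CPM at rest in both, a difference of -1.01 (SE 0.13, edgeR adjusted p = 4.83e-07). Zfp36, given above with the genes repressed more in Ahr-/- cells, was the third. Il10, the anti-inflammatory cytokine gene, had a difference of 0.89 (SE 0.45, edgeR adjusted p = 0.234).

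Genes of antigen presentation and surface receptors were among those induced less. Fcgr1, the high-affinity IgG receptor gene and one of the macrophage markers, rose from 249.9, 264, 250.2 and 263 to 783, 873, 719 and 745 CPM in Ahr+/+ BMMs. Its values in Ahr-/- BMMs were 247, 243, 255 and 280.2 CPM at rest and 272, 294, 418 and 331 CPM after activation, a difference of -1.24 (SE 0.19, edgeR adjusted p = 5.69e-06). Cd86, the costimulatory ligand of CD28, reached 182, 199, 92.8 and 147 CPM in activated Ahr+/+ and 62.4, 44.98, 74.3 and 62.1 CPM in activated Ahr-/- BMMs from 16.3 to 23.5 CPM at rest, a difference of -1.19 (SE 0.27, edgeR adjusted p = 0.00209). Neither gene's activated groups overlapped.

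Of 12 genes of MHC class II presentation tested, 3 were called (25%), H2-Aa, H2-Eb1 and Ctss, all lower. H2-Aa, an MHC class II chain, was 3.59, 5.72, 4.295 and 6.07 CPM at rest and 12.7, 9.41, 7.13 and 18.5 CPM after activation in Ahr+/+ BMMs. In Ahr-/- BMMs it was 10.97, 9.96, 7.42 and 9.61 CPM at rest and 7.79, 6.22, 4.31 and 7.49 CPM after activation, a difference of -1.81 (SE 0.34, edgeR adjusted p = 2.50e-04). The activated groups overlapped, as they did for H2-Eb1, whose difference of -1.56 (SE 0.41, edgeR adjusted p = 0.00793) came with a resting level that was higher in Ahr-/- cells by 1.27 (SE 0.29, edgeR adjusted p = 0.0088) on the log2 scale. Reads of the class II genes can be shared between related chains, which leaves single counts uncertain. Zbtb46, a transcription factor gene of classical dendritic cells, was called at no more than 0.959 CPM in any library. Klf4, a macrophage transcription factor gene, rose to 43.04, 60.3, 39.01 and 43.2 CPM in Ahr+/+ and 21.5, 16.2, 29.2 and 25.2 CPM in Ahr-/- BMMs, a difference of -1.40 (SE 0.24, edgeR adjusted p = 4.93e-05). C3, the central complement component, was 62.4, 96.0, 89.4 and 95.5 CPM at rest in Ahr+/+ and 95.1, 119, 115 and 135 CPM in Ahr-/- BMMs. It rose to 3312, 3236, 3319.8 and 2933 and 2597, 2103, 2371 and 2301 CPM, a difference in response of -0.88 (SE 0.19, edgeR adjusted p = 0.00101). Both states contributed to it. Ahr-/- minus Ahr+/+ was 0.43 (SE 0.13, edgeR adjusted p = 0.0789) at rest and -0.45 (SE 0.13, edgeR adjusted p = 0.0101) after activation, and neither passed the test. Fcgr1 and C3, with C5ar1 in the other direction, were the 3 called genes of 14 complement and Fc receptor genes tested (21.4%).

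Of 20 chemokine genes tested, 2 were called (10.0%), both lower. Ccl5, a T cell and monocyte attractant, went from 4.99, 4.996, 4.61 and 5.78 to 6018, 5684, 5268 and 7126 CPM in Ahr+/+ BMMs. It went from 5.56, 9.77, 12.9 and 14.04 to 4066, 3892, 4310.1 and 4397 CPM in Ahr-/- BMMs, where the activated groups did not overlap and at rest replicate 1 of the Ahr-/- group lay within the Ahr+/+ range. Its responses differed by -1.58 (SE 0.31, edgeR adjusted p = 3.66e-04), which drew on both states. Ahr-/- minus Ahr+/+ was 1.05 (SE 0.23, edgeR adjusted p = 0.00502) at rest and -0.53 (SE 0.21, edgeR adjusted p = 0.0622) after activation. Of these only the resting one passed the test. Cxcl16, a scavenger receptor and chemokine in 1 molecule, reached 719, 678, 661 and 767 CPM against 514, 549, 530.4 and 565 CPM, a difference of -0.59 (SE 0.12, edgeR adjusted p = 4.14e-04). Cxcl10, an interferon-induced chemokine gene, missed the threshold with -1.74 (SE 0.47, edgeR adjusted p = 0.0103), and Ccl2, the monocyte attractant, did so in the other direction with 1.28 (SE 0.39, edgeR adjusted p = 0.0273).

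None of the 18 pro-inflammatory cytokine genes tested was called, and 5 had an unadjusted p under 0.05. The difference in response was -0.00312 (SE 0.17, edgeR adjusted p = 0.9999) for Tnf and 1.05 (SE 0.39, edgeR adjusted p = 0.0782) for Il1b. Il6 was near absent at rest, with means of 0.00506 CPM in Ahr+/+ and 0.0345 CPM in Ahr-/- BMMs. Its difference of -0.85 (SE 1.16, edgeR adjusted p = 0.764) therefore rested on very few resting reads. After activation the mean of Il6 was 480 CPM in Ahr+/+ and 627 CPM in Ahr-/- BMMs. Il12b, the shared subunit of IL-12 and IL-23, was too sparse in resting Ahr-/- libraries for a size to be given and did not pass the test (edgeR adjusted p = 0.0273). Il12a, Il23a, Csf2 and Csf3 had no read in a whole resting group, which leaves their difference undefined. That they were not called therefore does not show that the genotypes responded alike. Their mean after activation was higher in Ahr-/- than in Ahr+/+ BMMs. It was 32.059 (SD 17.572) against 18.154 CPM for Il12a and 2.734 (SD 1.9301) against 0.41879 CPM for Il23a. For Csf2 it was 12.034 (SD 7.5146) against 1.3679 CPM, and for Csf3 6.2607 (SD 3.2071) against 1.0507 CPM. Without these genes the median of the list was 0.08. No gene was called among 9 of the tryptophan and kynurenine list and 13 of the prostaglandin and leukotriene list, of which 2 each had an unadjusted p under 0.05.

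The 30 genes of cell cycle and DNA replication had a median log2 response to hk S.E. of -4.77 in Ahr+/+ and -3.96 in Ahr-/- BMMs. The difference was positive for 29 of 30 genes, with a median of 0.53, and 7 were called (23.3%), 6 higher and 1 lower. The 6 were Mki67, Mcm3, Mcm5, Mcm6, Tyms and Foxm1. Mcm5, a subunit of the replicative helicase, went from 95.6, 87.5, 87.9 and 110.2 to 2.83, 3.25, 3.96 and 3.64 CPM in Ahr+/+ BMMs. It went from 92.97, 55.2, 63.03 and 60.2 to 6.58, 7.95, 5.41 and 5.87 CPM in Ahr-/- BMMs, above all Ahr+/+ libraries after activation. The difference was 1.39 (SE 0.21, edgeR adjusted p = 5.06e-06). Mki67, the proliferation marker gene, was 15.7, 14.1, 18.4 and 18.1 CPM in activated Ahr+/+ and 34.3, 29.05, 22.2 and 27.98 CPM in activated Ahr-/- BMMs, a difference of 1.32 (SE 0.25, edgeR adjusted p = 2.83e-04). Foxm1, a transcription factor gene of the G2 and M phases, was 46.9, 46.8, 41.2 and 49.3 against 37.6, 22.6, 24.6 and 23.3 CPM at rest and 0.449, 0.448, 0.409 and 0.639 against 0.665, 1.09, 0.773 and 1.01 CPM after activation, a difference of 1.59 (SE 0.28, edgeR adjusted p = 1.06e-04) to which both states contributed.

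Mcm3 and Mcm6, further subunits of the helicase, differed by 0.89 and 0.68, and Tyms, which makes thymidylate, by 1.17. The gene with a lower response was Cdkn1a, which encodes the cell cycle inhibitor p21. It rose from 215, 212, 209 and 212 to 508, 457, 455 and 409 CPM in Ahr+/+ and from 184, 173, 199.9 and 195 to 240.0, 266, 272 and 271 CPM in Ahr-/- BMMs, a difference of -0.63 (SE 0.16, edgeR adjusted p = 0.0075). Outside the list, Pole, the catalytic subunit of DNA polymerase epsilon, dropped to 0.225, 0.187, 0.566 and 0.192 CPM in Ahr+/+ and 0.602, 1.16, 0.589 and 0.791 CPM in Ahr-/- BMMs, a difference of 1.97 (SE 0.36, edgeR adjusted p = 1.44e-04). Hjurp, a centromere chaperone gene named after its values were seen, was 33.2, 37.8, 38.9 and 33.3 against 49.3, 55.2, 46.5 and 47.2 CPM after activation, a difference in response of 0.79 (SE 0.10, edgeR adjusted p = 8.52e-07). For Hjurp, Ahr-/- minus Ahr+/+ was -0.33 (SE 0.07, edgeR adjusted p = 0.0077) at rest and 0.47 (SE 0.07, edgeR adjusted p = 4.29e-06) after activation. The mean log2 CPM of the list at rest was 5.809, 5.740, 5.738 and 5.977 in Ahr+/+ and 5.743, 4.965, 5.349 and 5.235 in Ahr-/- libraries. Of the resting Ahr-/- libraries only replicate 1 lay within the Ahr+/+ range, and the others were lower. After activation the genotypes overlapped, at 1.43 to 1.63 in Ahr+/+ and 1.56 to 1.77 in Ahr-/- libraries. The difference in response of the list thus drew on both states. Of the 7 calls, 3 were made without Ahr-/- replicates 1 and 2, 7 of the list without replicates 3 and 4, and 5 to 8 when single libraries were left out.

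Repression of further genes was weaker without AhR, or did not pass the test there. Psd3, which encodes an exchange factor for ARF6, was 29.2, 31.1, 30.9 and 26.6 CPM at rest and 9.34, 10.9, 9.34 and 7.63 CPM after activation in Ahr+/+ BMMs. Without AhR it was 23.5, 17.4, 33.7 and 29.7 CPM at rest and 23.1, 20.7, 25.8 and 31.6 CPM after activation, and its response of -0.05 (SE 0.15, edgeR adjusted p = 0.798) did not pass the test. The difference was 1.62 (SE 0.22, edgeR adjusted p = 1.84e-06). Rab4a, an endosomal recycling GTPase gene, dropped from 2.44, 3.39, 4.08 and 3.52 to 0.2695, 0.299, 0.251 and 0.234 CPM in Ahr+/+ BMMs. It was higher in Ahr-/- BMMs in both states, with 7.01, 11.3, 8.04 and 9.48 CPM at rest and 2.06, 5.13, 3.02 and 3.33 CPM after activation, and the difference in response was 2.27 (SE 0.38, edgeR adjusted p = 3.83e-05). Atic, an enzyme of purine synthesis named after its values were seen, dropped from 51.9, 49.1, 55.7 and 55.5 to 37.6, 37.02, 41.2 and 41.8 CPM in Ahr+/+ but rose from 51.3, 50.6, 50.8 and 50.9 to 62.4, 70.2, 61.5 and 64.3 CPM in Ahr-/- BMMs, a difference of 0.77 (SE 0.10, edgeR adjusted p = 7.31e-07).

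Klhl6, which encodes an adaptor of a ubiquitin ligase, dropped to 1.17, 1.61, 1.82 and 1.896 CPM in Ahr+/+ and 5.51, 7.01, 3.27 and 4.93 CPM in Ahr-/- BMMs from 23.3 to 36.3 CPM at rest, a difference of 1.81 (SE 0.33, edgeR adjusted p = 1.84e-04). Deptor, an inhibitor of mTOR, dropped to 0.539, 0.112, 0.283 and 0.213 and 0.9498, 1.46, 0.405 and 0.589 CPM, a difference of 1.70 (SE 0.42, edgeR adjusted p = 0.00518). Tnfsf13b, which encodes the B cell survival factor BAFF, was 0.719, 0.859, 1.32 and 1.19 CPM in activated Ahr+/+ and 3.89, 4.95, 1.66 and 2.502 CPM in activated Ahr-/- BMMs, a difference of 1.62 (SE 0.40, edgeR adjusted p = 0.00491). The activated groups overlapped for Deptor and did not for Klhl6 and Tnfsf13b. With single libraries left out, Deptor was called in 8 of 16 fits and Tnfsf13b in 9 of 16. Over the other settings the difference was 0.85 to 2.44 for Deptor and 1.00 to 2.07 for Tnfsf13b. Tfec, a transcription factor gene of the myeloid lineage, was repressed in Ahr+/+ BMMs to 9.16, 8.97, 7.89 and 9.82 CPM and was 19.5, 22.04, 12.7 and 16.5 CPM in activated Ahr-/- BMMs, a difference of 1.20 (SE 0.20, edgeR adjusted p = 3.83e-05). With Klf4 in the other direction it made 2 of 15 macrophage lineage factors (13.3%).

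For some genes of this class the activated genotypes met and the resting ones differed. Mmp12, the macrophage elastase gene, was 417, 490.0, 628 and 426 CPM in resting Ahr+/+ and 277, 173, 207 and 169.5 CPM in resting Ahr-/- BMMs. After activation it was 241, 190.2, 274 and 179.6 and 193, 213, 183 and 222 CPM, which overlapped, and the difference in response of 1.12 (SE 0.23, edgeR adjusted p = 8.47e-04) came with a resting difference of -1.25 (SE 0.17, edgeR adjusted p = 2.45e-06). Plau, which encodes the plasminogen activator urokinase, had the same form, with 232, 175, 261 and 226 against 161, 83.3, 124 and 105 CPM at rest and 5.57, 5.01, 5.37 and 4.47 against 4.34, 5.25, 4.64 and 6.20 CPM after activation, a difference in response of 0.93 (SE 0.21, edgeR adjusted p = 0.00183). Plaur, the receptor of urokinase, belonged to the next class, with 52.3, 53.8, 33.1 and 34.1 CPM in activated Ahr-/- against 32.9, 28.95, 32.2 and 30.3 CPM in activated Ahr+/+ BMMs and a difference of 1.01 (SE 0.23, edgeR adjusted p = 0.00173). Mmp12, Plau, Plaur and Adam8 were the 4 called genes among 23 matrix proteases and inhibitors tested (17.4%).

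Of the 109 genes induced more without AhR, Trem1 had the largest difference among those named by rule. Trem1, an activating receptor of myeloid cells that amplifies TLR signals, rose from 1.01, 1.26, 1.06 and 1.005 to 4.85, 7.14, 5.22 and 6.54 CPM in Ahr+/+ BMMs. It rose from 0.834, 0.186, 0.783 and 0.476 to 20.1, 27.8, 12.8 and 17.99 CPM in Ahr-/- BMMs, and all 4 activated Ahr-/- libraries were above all activated Ahr+/+ libraries. The difference was 2.54 (SE 0.35, edgeR adjusted p = 1.95e-06). Gatm, the first enzyme of creatine synthesis, was 47.4, 41.6, 44.9 and 48.3 CPM at rest and 47.9, 31.2, 43.7 and 45.01 CPM after activation in Ahr+/+ BMMs, a response of -0.12 (SE 0.22, edgeR adjusted p = 0.646) that did not pass the test. It rose from 36.5, 33.6, 51.3 and 52.1 to 114, 122, 149.6 and 194 CPM in Ahr-/- BMMs, a difference of 1.86 (SE 0.31, edgeR adjusted p = 3.83e-05).

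Cish, a SOCS family gene that is a target of STAT5, rose to 3.10, 2.32, 1.82 and 2.36 CPM in Ahr+/+ and to 16.97, 16.9, 5.78 and 8.74 CPM in Ahr-/- BMMs from 0.945 to 1.39 CPM at rest, a difference of 2.43 (SE 0.46, edgeR adjusted p = 2.62e-04). Icosl, the ligand of the T cell costimulator ICOS, rose to 23.7, 20.3, 16.7 and 25.03 and 68.8, 81.8, 40.04 and 52.2 CPM, a difference of 1.76 (SE 0.27, edgeR adjusted p = 1.15e-05). With Cd86 it was one of the 2 called genes among 10 costimulation and checkpoint genes, and the 2 moved in opposite directions. Upp1, a uridine phosphorylase gene, reached 22.4, 30.0, 23.8 and 20.6 and 83.2, 107, 43.3 and 44.98 CPM, a difference of 1.76 (SE 0.46, edgeR adjusted p = 0.00843). For Cish, Icosl and Upp1 replicates 1 and 2 were the higher pair of the Ahr-/- group, and these 3 genes were not called without them.

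Slc7a2, a transporter of arginine, rose from 7.499, 6.25, 6.67 and 5.995 to 1337, 1360.5, 944 and 1033 CPM in Ahr+/+ and from 4.23, 3.402, 4.699 and 4.22 to 1382, 1396, 1593 and 1813 CPM in Ahr-/- BMMs, a difference of 1.05 (SE 0.19, edgeR adjusted p = 9.39e-05). It was the only called gene of 10 in the list of nitric oxide, arginine and itaconate genes (10.0%). Slc20a1, a phosphate transporter gene named after its values were seen, reached 59.5, 56.1, 59.6 and 65.1 CPM in activated Ahr+/+ and 82.8, 87.1, 72.7 and 83.3 CPM in activated Ahr-/- BMMs, starting lower in Ahr-/- cells at 35.7, 29.8, 33.8 and 33.3 against 44.1, 42.8, 44.4 and 50.6 CPM, a difference of 0.89 (SE 0.12, edgeR adjusted p = 7.31e-07). Pcx, which encodes pyruvate carboxylase, showed a difference of 1.52 (SE 0.30, edgeR adjusted p = 4.84e-04) at levels of 1.05 to 6.03 CPM. This difference drew on both states, and its activated groups overlapped. Ahr-/- minus Ahr+/+ was -0.94 (SE 0.22, edgeR adjusted p = 0.0121) at rest and 0.58 (SE 0.21, edgeR adjusted p = 0.0375) after activation, and neither passed the test. Acy1, which encodes an aminoacylase, was 1.26, 0.747, 1.38 and 1.53 CPM in activated Ahr+/+ and 5.57, 4.198, 1.36 and 2.21 CPM in activated Ahr-/- BMMs, a difference of 2.45 (SE 0.56, edgeR adjusted p = 0.00216). Abhd14a, named by the same rule among the genes repressed more in Ahr+/+ BMMs, was 0.674, 1.46, 0.974 and 1.36 against 3.04, 3.75, 1.58 and 1.36 CPM, a difference of 1.81 (SE 0.40, edgeR adjusted p = 0.00176). For both genes Ahr-/- replicates 1 and 2 were the higher pair, and neither was called without them. They neighbour each other on chromosome 9, so that some of their reads may be uncertain.

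Of 21 genes of sterol synthesis and efflux tested, 3 were called (14.3%), all higher, and the median of the list was 0.30. Fdps, which makes farnesyl diphosphate, was 4.09, 5.27, 6.35 and 6.05 against 9.78, 11.5, 6.51 and 7.87 CPM after activation, a difference of 0.99 (SE 0.26, edgeR adjusted p = 0.00793). Its activated groups did not overlap. Among 22 glycolysis and HIF-1 target genes the difference was positive for 19, with a median of 0.51 and 12 at an unadjusted p under 0.05, and 1 was called (4.55%), Pdk1, which encodes a kinase that holds back pyruvate dehydrogenase. It dropped to 18.9, 27.7, 33.3 and 21.1 CPM in Ahr+/+ and was 47.2, 53.3, 28.9 and 31.1 CPM in activated Ahr-/- BMMs, a difference of 1.10 (SE 0.26, edgeR adjusted p = 0.00269). The activated groups of Pdk1 overlapped, and its difference was 0.645 to 1.468 over settings other than leaving out single libraries.

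The NRF2 antioxidant genes were split. Gsr, glutathione reductase, rose to 100.5, 113, 129 and 113 CPM in Ahr+/+ and 179.8, 193, 171 and 171 CPM in Ahr-/- BMMs, a difference of 0.68 (SE 0.14, edgeR adjusted p = 5.66e-04). Sqstm1, the autophagy receptor p62, rose to 5592, 5024, 4679 and 6083 and 3166, 2533, 3596 and 3551 CPM, a difference of -0.93 (SE 0.21, edgeR adjusted p = 0.00168). They were the only called genes of 15 tested (13.3%). C5ar1, the receptor of the complement peptide C5a, was repressed less without AhR, with 53.5, 70.7, 69.5 and 54.9 against 68.5, 93.6, 78.3 and 79.4 CPM after activation and a difference of 0.63 (SE 0.13, edgeR adjusted p = 6.51e-04).

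**Figure D3:**
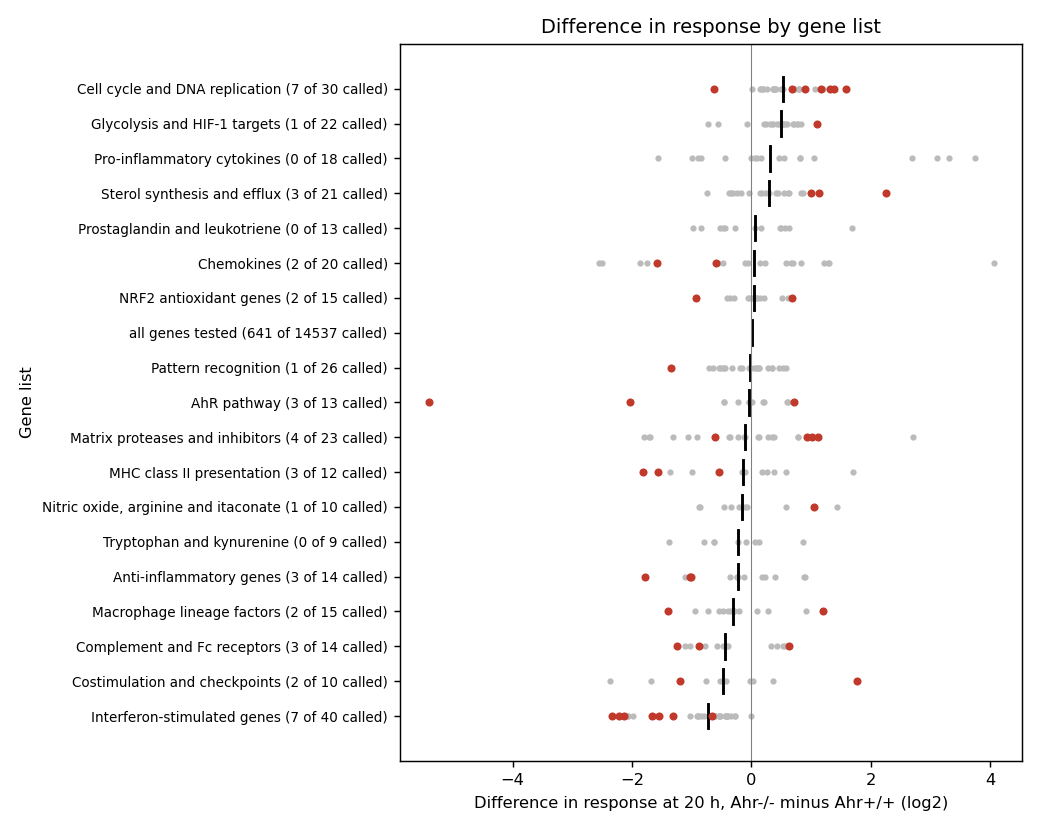
Difference in response (Ahr-/- minus Ahr+/+, log2) of each tested gene in the lists examined, with the called genes in red and the median of each list as a bar, beside the median of all 14537 genes tested at 0.01. All 40 interferon-stimulated genes lie below 0, and 29 of 30 cell cycle genes lie above it.

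Of the genes around Ahr, within 5 Mb on chromosome 12, 4 of 38 tested were called (10.5%, against 4.41% of all), namely Scin, Hdac9, Pik3cg and Tspan13. Within 10 Mb there were 6 of 54 (11.1%), with Rsad2 and Cmpk2 in addition. Pik3cg and Tspan13 were named for their place after the values were seen. The part of their position in these results was not tested.

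At 20 h, activated BMMs of both genotypes had also been exposed to BaP (benzo[a]pyrene, 1 µM) or I3C (indole-3-carbinol, 10 µM), both dissolved in DMSO, in place of the vehicle alone. Each group had 4 libraries, whose values did not enter the contrast that called the 641 genes. These libraries share its estimate of the spread and may come from the same mice. All of the Ahr+/+ libraries among them belong to the identifier series of the activated DMSO libraries, and all of the Ahr-/- libraries to that of the Ahr-/- DMSO libraries, so that genotype and series cannot be told apart here either. They have no resting counterpart, so that the genotypes were compared in the activated state alone. With BaP, 635 of the 641 genes had a genotype difference of the same sign as their difference in response, and 583 (91.0%) passed the test in that direction, against 23.3% of all genes. With I3C these were 635 and 529 (82.5%), against 15.6% of all genes. None of the 641 passed in the opposite direction in either. With the identifier series as a covariate, the genes called over the whole table went from 3385 to 1967 with BaP and from 2274 to 1092 with I3C.

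Plin2 was lower in Ahr-/- than Ahr+/+ activated BMMs, with differences of -1.57 (SE 0.10, edgeR adjusted p = 2.82e-18) with BaP and -1.36 (SE 0.10, edgeR adjusted p = 1.36e-15) with I3C on the log2 scale. Mxd1 followed with -3.27 and -2.60, Rsad2 with -2.94 and -2.32, and Trem1 was higher with 2.23 and 1.68. Ahrr was lower as well, at -4.33 (SE 0.21, edgeR adjusted p = 3.11e-23) with BaP and -4.54 (SE 0.22, edgeR adjusted p = 5.35e-23) with I3C. Tiparp, which did not pass in the DMSO libraries, was lower with BaP at -1.16 (SE 0.26, edgeR adjusted p = 4.22e-04) and with I3C at -1.03 (SE 0.26, edgeR adjusted p = 0.00263). Mmp12 and Plau, whose genotypes met after activation, did not pass the test with BaP either, at -0.32 (SE 0.17, edgeR adjusted p = 0.129) for Mmp12 and -0.16 (SE 0.15, edgeR adjusted p = 0.449) for Plau.

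The same difference of responses was tested 3 h after hk S.E., again with 4 libraries per group. There 2 genes were called (0.0138% of those tested) and 867 (5.96%) had an unadjusted p under 0.05. The 2 genes, which belong to no list, were Enc1, lower at -1.01 (edgeR adjusted p = 0.00323), and Rcsd1, higher at 0.83 (edgeR adjusted p = 5.70e-04). Rcsd1 was also called at 20 h, at 0.50 (edgeR adjusted p = 0.00785), and Enc1 was not, at -0.31 (edgeR adjusted p = 0.337). Of the 641 genes of 20 h, 440 had the same sign at 3 h, with medians of -0.10 for the genes lower at 20 h and 0.07 for those higher.

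The change between the times was tested directly as the 20 h difference minus the 3 h difference. It passed for 23 genes (0.158%), of which 22 are among the 641, the exception being S1pr1, the receptor of sphingosine-1-phosphate. Plin2 had a difference of -0.20 at 3 h and -1.46 at 20 h, a change of -1.26 (SE 0.19, edgeR adjusted p = 3.93e-04). Metrnl, which encodes the secreted protein meteorin-like, changed by -1.19 (SE 0.19, edgeR adjusted p = 8.04e-04), from 0.25 at 3 h to -0.94 at 20 h. Mcm5 changed by 1.55 (SE 0.28, edgeR adjusted p = 0.00304), Espl1, the separase gene, by 1.66 (SE 0.31, edgeR adjusted p = 0.00388), and Serpinb6b by -2.84 (SE 0.55, edgeR adjusted p = 0.00438). Por, which encodes the electron donor of cytochrome P450 enzymes, changed by -1.004 (SE 0.19, edgeR adjusted p = 0.00415). Metrnl, Espl1, Por and S1pr1 were named after their values were seen. Without Ahr-/- replicates 1 and 2 of the 20 h groups no gene passed this test, without replicates 3 and 4 there were 64, and leaving out activated Ahr-/- replicate 2 alone left 2.

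**Figure D4:**
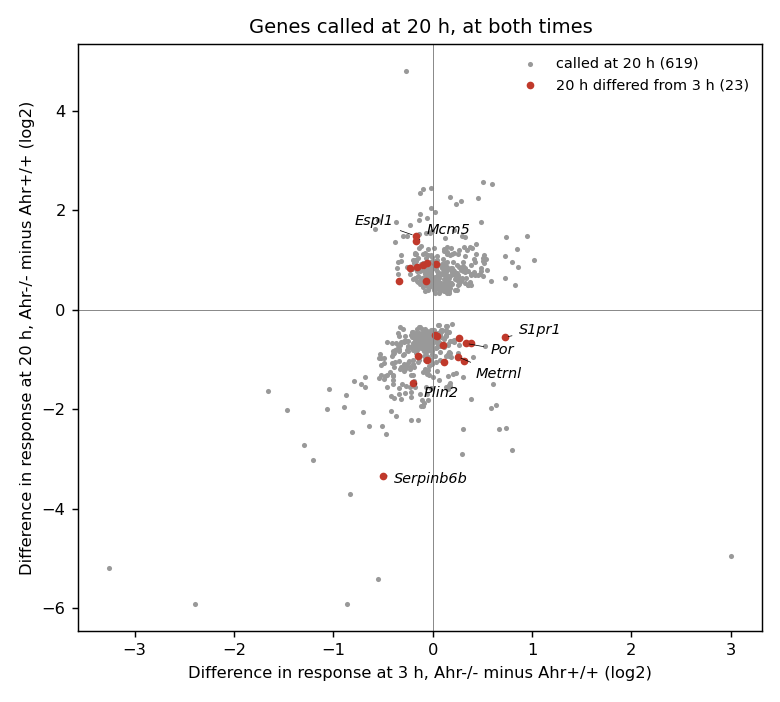
Difference in response (Ahr-/- minus Ahr+/+, log2) at 3 h (x axis) against 20 h (y axis) for the 641 genes called at 20 h and S1pr1, with the 23 genes whose difference changed between the times in red. The points split above and below 0 on the y axis by the rule of the call and gather around 0 on the x axis, with medians of -0.10 and 0.07 at 3 h for the lower and higher genes.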

How the data were processed

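The authors sequenced poly(A) RNA (TruSeq Stranded mRNA kit), demultiplexed with bcl2fastq 2.19.0.316, trimmed adapters, aligned reads to mm10 (GRCm38) with HISAT2 2.1.0 and counted them per gene with htseq-count 0.9.1 on the reverse strand in intersection-strict mode against GENCODE M22. The deposited files hold raw read counts per gene for each library. Reads that fit several places are not counted, which lowers the counts of near-identical genes. A deposited table of variance-stabilised values was not used.

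Counts of 55487 genes were read for all 64 libraries, and 5 entries per file that name no gene were left out (20.2% to 24.5% of each total). Genes were kept with edgeR's filterByExpr at a minimum count of 10, scaled with TMM and fitted as 16 groups with glmQLFit (R 4.3.3, edgeR 4.0.16, limma 3.58.1). The contrast was tested with glmQLFTest and adjusted by the Benjamini-Hochberg method over 14537 genes at 0.01. Of the alternatives, limma-voom and DESeq2 1.42.0 were run on the same libraries. The code was tested on simulated data. Positions are from GENCODE M21. Named by rule were Ahr, Ahrr, Tiparp, Nqo1, Cyp1a1 and Cyp1b1, the 8 largest differences per class with a mean log2 CPM of at least 0, and every called gene of the lists. The members and lists were chosen with earlier results of these data known. A few genes that this rule names are not reported here.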

Additional observations from a re-analysis of the deposited data

Results flagged for a closer look

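Of 324 groups of 4 libraries examined for the named genes and totals, 12 held 1 library that stood off from the other 3 by Dixon's test at 95%, and chance alone gives about 1 in 20. Total counts were 233047331 in resting Ahr+/+ replicate 4. In Ahr-/- BMMs at rest, replicate 1 stood high for Pcx (1.95 CPM), Tspan33 (9.58 CPM), Tyms (23.4 CPM) and Foxm1 (37.6 CPM), and replicate 2 low for Serpinb6b (17.4 CPM). In activated Ahr+/+ BMMs, replicate 4 stood high for Serpinb6b (4.17 CPM) and Irf1 (191.6 CPM) and low for Tlr9 (14.8 CPM), and replicate 3 stood high for Pole (0.566 CPM). Hjurp was low in resting Ahr+/+ replicate 3 (85.9 CPM), and Scin had its only reads of activated Ahr-/- BMMs in replicate 1 (0.0317 CPM).

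Of the 23 genes whose difference in response changed between 3 h and 20 h in edgeR's test of the 20 h minus 3 h contrast, 4 are among the genes named by rule or for the smallest p values of the 20 h contrast. The change was -2.84 for Serpinb6b, 1.55 for Mcm5, -1.26 for Plin2 and -0.78 for Cd300c2 on the log2 scale.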

How the results depend on the processing

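Of the alternatives, 3 were chosen after seeing the data: leaving out Ahr-/- replicates 1 and 2, leaving out Ahr-/- replicates 3 and 4, and keeping only the resting Ahr+/+ libraries of 1 identifier series. Against 641 genes called at 20 h (338 lower, 303 higher), 266 (134 and 132) were called when only the groups compared were fitted, where fewer libraries estimate the spread, and 1327 (670 and 657) at an adjusted p below 0.05. Without Ahr-/- replicates 1 and 2 the counts were 137 (77 and 60), and with the single series 422 (191 lower). DESeq2 called 915 (560 lower), and without a filter on low counts, which tests more genes, 445 were called (199 higher). Other settings gave 516 to 773 genes. Leaving out single libraries gave 425 to 715 (233 to 360 lower, 192 to 355 higher), lowest without activated Ahr-/- replicate 2.

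At 3 h the 2 calls became 18 with DESeq2, 0 with only the groups compared, 1 with the identifier series as a covariate, 5 at an adjusted p below 0.05, and 1 to 9 with single libraries left out. The 23 changes between the times became 35 with DESeq2 size factors, 7 without a filter, 39 at a minimum count of 30, 119 with DESeq2, 11 with only the groups compared, 7 with the single series, 64 without Ahr-/- replicates 3 and 4, 0 without replicates 1 and 2, 148 at an adjusted p below 0.05, and 2 to 48 with single libraries left out. Between activated genotypes, the BaP libraries had 2094 calls with only the groups compared and 1967 with the covariate (2643 to 3308 with single libraries left out), and the I3C libraries 927, 1092 and, at an adjusted p below 0.05, 3624 (1477 to 2456). Counts of genes responding within a genotype moved by less than 1.5 times. The cause of these shifts was not tested beyond the construction named.

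Same-numbered resting and activated libraries deviated together with r of 0.0482, 0.232, 0.0937 and 0.253 in Ahr+/+ and 0.407, 0.319, 0.448 and 0.521 in Ahr-/- BMMs, and 4 of 4 resting Ahr+/+ but 2 of 4 resting Ahr-/- libraries correlated best with their own number. Not every pair was above 0.1 and the labels tie no number to a mouse, so that a pairing was neither shown nor assumed. A replicate block within genotype gave 1505 calls at 20 h (758 lower, 747 higher), 31 at 3 h, 210 between the times and 3901 for I3C. A replicate block within genotype and time gave 2010 (1005 and 1005), 113, 544, 4857 for I3C and 5521 for BaP. All 641 genes were called under both.

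Of the named genes, only Ahr reversed, from -0.04 to 0.0277 with the single series and 0.154 without Ahr-/- replicates 3 and 4 (-0.149 to 0.0924 with single libraries left out). Among the refits of single named genes, 2048 kept direction and call, 263 kept direction but lost the call and 8 reversed. Calls lost were most frequent without Ahr-/- replicates 1 and 2 (43 of 80 genes). With single libraries left out, the called genes described that kept the call least often were Upp1 (4 of 16 fits) and Cdkn1a (5 of 16). Next came Rsad2 and Hsp90ab1 (6 of 16 each), H2-Eb1 and Fdps (7 of 16 each), and Deptor and Cd68 (8 of 16 each). Depth limits genes at few reads: 4 called genes had a group with no read and 2 a group with 1 to 3 reads.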
